A study of Homo sapiens with 6 samples.

Results

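BCL3, the subunits of NF-kB and the proteins that inhibit them form a set of 10 genes, which were followed here through a knock-down of PIR in melanoma cells. They were chosen by name: BCL3, the subunit genes NFKB1, NFKB2, RELA, RELB and REL, and the inhibitor genes NFKBIA, NFKBIB, NFKBIE and TNFAIP3. Of the 10, 9 were among the 19775 genes that had an array probe set of their own, annotated with no other gene, and all 9 of these passed the filter on low signal that left 13071 genes. The remaining gene is BCL3, whose 2 probe sets are both annotated with BCL3 and with MIR8085, a microRNA gene of 65 bases that lies inside BCL3 in the RefSeq gene table. Those probe sets are described with that limit and are left out of the counts of members.

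NF-kB is a family of dimeric transcription factors that are held in the cytoplasm by IkB proteins until a signal leads to the destruction or processing of the inhibitor. In the canonical pathway dimers that contain RELA or REL are released from IkB, and in the alternative pathway the kinase encoded by MAP3K14 drives the processing of the NFKB2 precursor, whose product pairs with RELB. BCL3 is an unusual IkB protein that acts in the nucleus, where it binds homodimers of the NFKB1 or NFKB2 products and can activate or repress their targets, and pirin, the product of PIR, is known as a partner of BCL3. Several genes of the system, NFKB2, NFKBIA and TNFAIP3 among them, are known targets of NF-kB itself, so the system contains feedback loops. In melanoma NF-kB is known for driving chemokine genes and survival genes.

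The cells were WM-266.4, an established line from a metastatic human melanoma. The siPIR cells received 200 pmol of a pool of 4 siRNA duplexes against PIR, sold as siGENOME Smartpool. The siCTR cells received 200 pmol of a pool of 4 non-targeting duplexes of another product line (on-target plus siCONTROL), and the NO cells received only the lipid carrier Oligofectamine. All cells were seeded 24 h before transfection, were transfected in medium without serum and were harvested after 72 h. RNA of 3 independent extractions was mixed for each group, and the target made from each mixture was hybridised to 2 arrays of the HG-U133 Plus 2 type. Each group is therefore 1 RNA pool of 1 cell line, so no test between 2 conditions is possible, and the spread between the 2 arrays of a pool covers hybridisation error only. The comparisons of siPIR with siCTR and of siPIR with NO share the siPIR pool, so their values are given side by side and are not independent of each other. In bulk RNA of this kind, fewer cells of a type and less RNA per cell cannot be told apart.

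The sequences below are stretches of the RefSeq promoter table (GRCh38.p14), which covers 250 bases before to 50 bases after each start site. They are shown because several members are known targets of NF-kB, and because NFKB2 and TNFAIP3 lead the differences described further on. Each line gives 29 or 30 bases, 5′ to 3′ on the strand of the gene, and the capitals mark a match on either strand to the kappaB consensus, the sequence that NF-kB dimers bind. Overlapping matches are merged into 1 run.
NFKB2 (chr10:102394462-102394490, plus strand): aaacgtcatGGGAATTCCCCcctccgggg
NFKB2 (chr10:102394490-102394519, plus strand): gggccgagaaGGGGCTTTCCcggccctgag
NFKB2 (chr10:102395519-102395548, plus strand): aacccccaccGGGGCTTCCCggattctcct
NFKB2 (chr10:102395674-102395703, plus strand): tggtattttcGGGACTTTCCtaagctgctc
TNFAIP3 (chr6:137867182-137867211, plus strand): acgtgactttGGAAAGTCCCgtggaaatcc
TNFAIP3 (chr6:137867194-137867223, plus strand): aaagtcccgtGGAAATCCCCgggcctacaa
BCL3 (chr19:44748700-44748729, plus strand): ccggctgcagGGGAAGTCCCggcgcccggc
NFKB1 (chr4:102501300-102501329, plus strand): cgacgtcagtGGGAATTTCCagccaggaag
REL (chr2:60881518-60881546, plus strand): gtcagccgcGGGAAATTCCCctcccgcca
NFKBIA (chr14:35404811-35404840, minus strand): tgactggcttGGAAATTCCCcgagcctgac

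Of the 10 members, 8 had a promoter in the table, with 13 start sites between them, and 8 of the 13 held at least 1 match. The share over all promoters in the table was 5.91% (2075 of 35116). Counted by gene, 7 of the 8 members held a match, beside 8.94% of the 10589 measured genes with a promoter there. The members were chosen as genes of the NF-kB system, several of them known targets, so these shares are not independent evidence. NFKB2 had 3 start sites and matches at 2 of them. At one of these the runs began 107 and 78 bases upstream of the start site, and at the other 176 and 21 bases upstream. The neighbouring TNFAIP3 runs began 67 and 55 bases upstream. The BCL3 run began 2 bases after its start site. The runs of NFKB1, REL and NFKBIA began 49, 47 and 81 bases upstream. NFKBIB also held a merged run, 28 bases upstream of 1 of its 2 start sites, while the letters were not found in either RELA window. RELB and NFKBIE are named only. A match describes these letters in these windows and was not tested for binding.

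**Figure D1:**
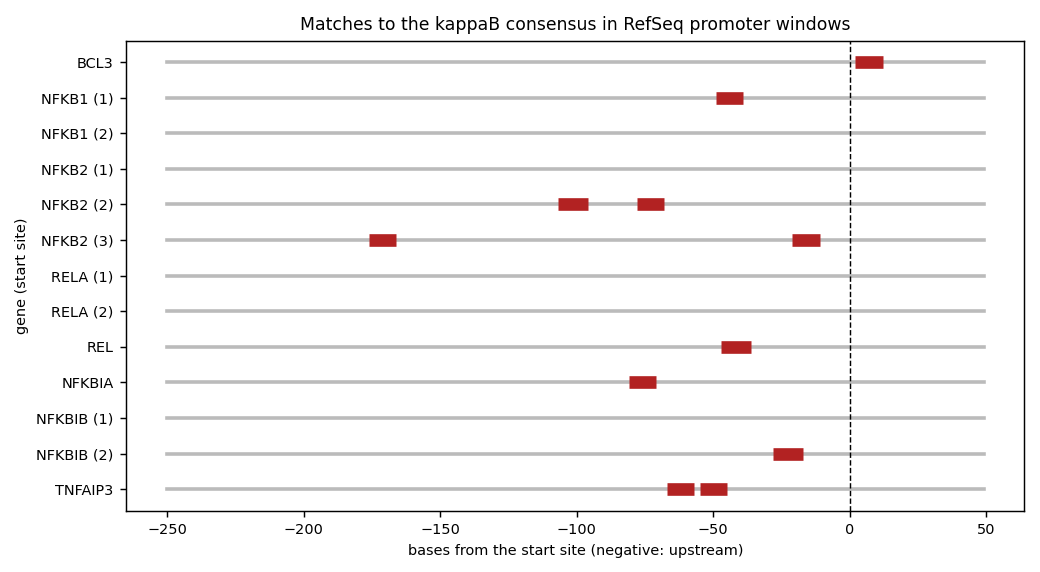
Positions of matches to the kappaB consensus (red blocks) in the RefSeq promoter windows (grey lines) of the 8 members with an entry, 1 line per start site; the horizontal axis is the distance in bases from the start site, with negative values upstream. NFKB2 carries 2 runs at each of 2 start sites, and both RELA windows carry none.

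PIR itself checked the labels. Its signal (207469_s_at) was 392 and 382 in siPIR, against 13544 and 13180 in siCTR and 13990 and 14153 in NO, a log2 difference of -5.09 from siCTR and -5.17 from NO. Repeat arrays of a pool correlated at 0.974 to 0.981 across the measured genes, and siPIR arrays correlated with the other arrays at 0.946 to 0.956. The second siCTR array was as close to the first NO array as to its own repeat (0.974 in both cases). These correlations are over genes, which are not independent replicates. Of 8 melanocyte lineage genes, 7 were measured, and their summed signal was 101359 to 103249 in siPIR, 95250 to 100933 in siCTR and 97479 to 103240 in NO. Of 8 leukocyte genes 3 were measured, with summed signals over the list of 678 to 719 in siPIR, 448 to 499 in siCTR and 393 to 438 in NO. CD14, a lipopolysaccharide co-receptor, read 275 and 290 in siPIR, 149 and 152 in siCTR and 61.4 and 123 in NO, and the defining leukocyte gene PTPRC stayed below the median signal on every array. The other measured leukocyte genes were also positive against both controls. FCER1G was 0.45 from siCTR and 0.54 from NO, and CSF1R, which passed the filter on low signal only through the siPIR pool, was 0.22 and 0.73. The fibroblast list, 3 of 6 measured and dominated by the collagen gene COL1A2, summed to 23079 to 23972 in siPIR, 14615 to 15819 in siCTR and 12635 to 12753 in NO. The other measured fibroblast genes were not above siCTR: LUM was -0.44 from siCTR and -0.61 from NO, COL1A1 was -0.09 and 0.71, and the list median was -0.09 from siCTR and 0.71 from NO. The endothelial and keratinocyte lists had 2 of 5 and 1 of 6 genes measured. Their sums were 473 to 556 in siPIR, 423 to 443 in siCTR and 568 to 709 in NO for the first, and 2681 to 2787, 3332 to 3742 and 3268 to 3430 for the second. The ratio of 3′ to 5′ probe sets of ACTB was 1.13 on both siPIR arrays and 1.23 to 1.27 on the other 4 arrays. The part of the CD14 and COL1A2 signal, or of the ACTB ratio, in the member values was not tested.

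Among the 9 measured members, TNFAIP3 and NFKB2 had higher signals in siPIR than in both controls, by about 0.7 to 0.9 on the log2 scale, and no member was lower by that much. A gene counts as called here when the log2 difference between pools, computed from log2(signal + 5.4), reached 1.5-fold and the arrays of the 2 pools did not overlap. By that rule 2 of 9 members were higher in siPIR than in siCTR, where the share over all measured genes was 10.7%, and 0 were lower (10.1%). Against NO the same 2 of 9 were higher (11.9% of all genes) and 0 lower (12.9%). Against both controls together 2 of 9 were higher and 0 lower, with 6.37% and 7.55% of all genes. At 2-fold 0 of 9 members were called in either comparison, against 8.01% of genes for siCTR and 9.15% for NO. With so few members these counts do not set the members apart from the background.

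The median log2 difference of the 9 members was 0.10 from siCTR and 0.21 from NO, beside 0.05 and 0.03 over all measured genes. Without the first siPIR array these medians were 0.0022 and 0.068, and as a mean over probe sets -0.044 and 0.070. Of the 9 members, 6 were positive against both controls and 1, NFKB1, was negative against both. The siPIR arrays lay wholly beyond the siCTR arrays for 4 of 9 members (66.1% of all genes) and wholly beyond the NO arrays for 5 of 9 (70.4%). When limma set the siPIR pool against the siCTR and NO pools taken as if they were replicates, 0 of 13071 genes passed an adjusted p of 0.05 (0% called), while 2739 had an unadjusted p below 0.05. Among the members 0 of 9 passed and 2 had an unadjusted p below 0.05. These were TNFAIP3, with an adjusted p of 0.166 in limma, and NFKB2, with 0.185. That fit has a single residual degree of freedom between pools, and its count of 0 became 486 when each array was centred on its median and 2104 when only the brightest genes were tested.

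**Figure D2:**
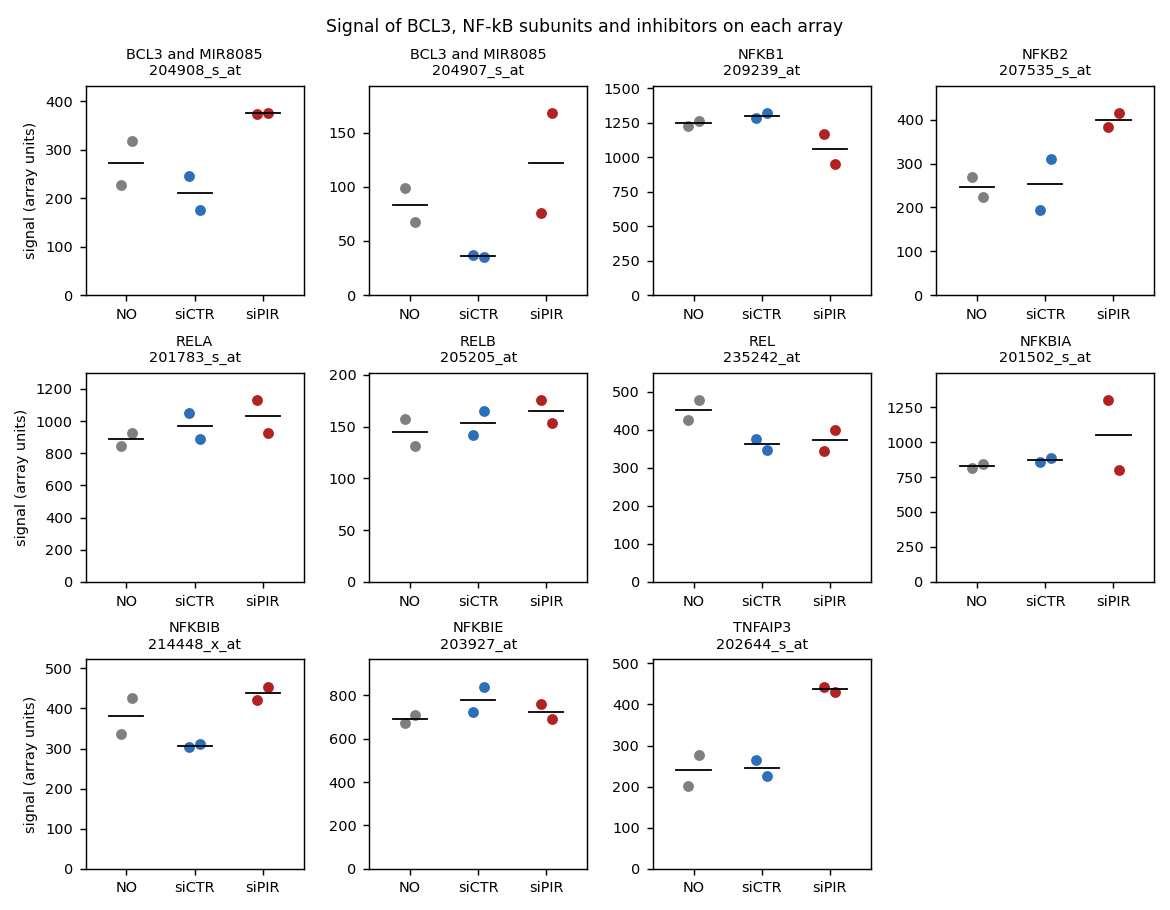
Signal in array units on each of the 6 arrays (points) with the mean of each pool (lines) for the brightest probe set of each member and both BCL3 probe sets; every vertical axis starts at 0. Both siPIR points of TNFAIP3 (443 and 432) and NFKB2 (385 and 416) sit above all 4 control points, while the siPIR points of RELB and NFKBIE overlap those of each control.

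BCL3 gave higher signals in siPIR than in siCTR at both probe sets annotated with BCL3 and MIR8085. The brighter of them (204908_s_at) read 374 and 375 in siPIR, 245 and 176 in siCTR and 228 and 318 in NO. Both siPIR arrays were above all 4 control arrays, and the siCTR and NO arrays overlapped. The log2 difference from siCTR was 0.84, with 0.60 to 1.07 over the 4 pairs of arrays, and from NO it was 0.47 (0.23 to 0.71), which is below 1.5-fold. The dimmer probe set (204907_s_at) read 75.7 and 168 in siPIR, 36.6 and 35.5 in siCTR and 98.4 and 67.4 in NO. Here siCTR was low, 1 siPIR array lay between the NO arrays and the other above both, with a log2 difference of 1.52 from siCTR and 0.45 from NO, and of -1.07 between siCTR and NO. At both probe sets the siCTR mean was itself below that of NO, by -0.37 and -1.07. The annotation alone does not tell how much of the signal comes from either gene, and the positions of the probes were not examined.

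NFKB2 encodes the precursor that is processed into the DNA-binding subunit of the alternative pathway. Its brightest probe set (207535_s_at) read 385 and 416 in siPIR, 194 and 312 in siCTR and 269 and 223 in NO. The siPIR arrays were above all 4 control arrays, and the siCTR arrays spanned the range of the NO arrays. The log2 difference was 0.69 from both controls, with pairs of arrays from 0.30 to 1.08 for siCTR and from 0.51 to 0.88 for NO. The 2 siCTR arrays differed by 0.67, slightly above the 95th percentile of repeat differences at that brightness (0.64). Without the first siCTR array the difference from siCTR was 0.35 and no longer called, and without the second it was 1.03. Without the second NO array the NFKB2 difference from NO was 0.56 and no longer called. A further probe set above the median signal (209636_at) read 94.4 and 119 in siPIR, 73.1 and 72.8 in siCTR and 64.1 and 29.8 in NO. It placed siPIR above both controls as well, by 0.51 from siCTR, short of 1.5-fold, and by 1.17 from NO. The third (211524_at) was below the median signal in every pool. The promoter runs shown above for NFKB2 are the most numerous of any member, but NFKB2 also has the most start sites (3). A link between the runs and the signal was not tested.

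The 3 measured genes whose pattern over the 6 arrays was closest to that of NFKB2 were DMBT1, TPPP and RHPN1-AS1. The distance, a root mean square of gene-centred log2 levels over 6 arrays of 3 pools, was 0.06 for DMBT1, 0.08 for TPPP and 0.09 for RHPN1-AS1. DMBT1 read 146 and 156 in siPIR, 69.4 and 111 in siCTR and 110 and 86.7 in NO, so it shares with NFKB2 a low first siCTR array. This is a description of 3 pools only.

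NFKB1, the subunit gene whose precursor yields the DNA-binding partner of RELA, had slightly lower signals in siPIR. Its probe set (209239_at) read 1164 and 953 in siPIR, 1284 and 1320 in siCTR and 1229 and 1263 in NO. Both siPIR arrays were below all 4 control arrays, by -0.30 from siCTR (pairs of arrays from -0.47 to -0.14) and by -0.24 from NO (-0.41 to -0.08), short of 1.5-fold. The paralogs NFKB1 and NFKB2 thus stood on opposite sides of the controls. A difference between the 2 genes was not tested.

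RELA encodes the main transactivating subunit of the canonical pathway. Its brighter probe set (201783_s_at) read 1132 and 929 in siPIR, 1048 and 889 in siCTR and 848 and 926 in NO, with overlap between siPIR and siCTR. The log2 differences were 0.09 and 0.21 at this probe set and -0.17 and 0.02 at the dimmer one (209878_s_at). RELB, the partner of the NFKB2 product, read 176 and 153 in siPIR, 142 and 165 in siCTR and 158 and 131 in NO (205205_at). Its arrays overlapped between all 3 pools, with differences of 0.10 and 0.19.

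REL, the subunit best known from lymphoid cells, followed another order. Its brightest probe set (235242_at) read 344 and 401 in siPIR, 376 and 348 in siCTR and 427 and 479 in NO. Both siRNA pools lay below the NO arrays and overlapped each other. The log2 difference of siPIR was 0.04 from siCTR and -0.28 from NO, and that of siCTR from NO was -0.32. All 4 REL probe sets above the median signal had both siRNA pools below NO, with arrays apart in each case. The difference from NO was -0.46 to -0.26 for siPIR and -0.90 to -0.32 for siCTR. Arrays were apart for 70.4% and 53% of all genes in these comparisons. The 4 probe sets share their target and are not independent. Between siPIR and siCTR 3 of the 4 were positive and 1 negative, from -0.10 to 0.44. The arrays of siPIR and siCTR were apart at 2 of them, beside 66.1% of all genes. None of the 4 reached 1.5-fold between siPIR and NO, and 1 (239486_at) did between siCTR and NO. A further probe set (206035_at) was lower in siPIR than in both controls, but all its pools were below the median signal and it was not counted as measured.

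TNFAIP3, which encodes the ubiquitin-editing protein A20 that shuts down signalling upstream of the IkB kinase, had the largest difference when each of the 9 measured members is taken at its brightest probe set. Its brighter probe set (202644_s_at) read 443 and 432 in siPIR, 265 and 225 in siCTR and 202 and 277 in NO. The siPIR arrays were close together and above all 4 control arrays, which overlapped each other. The log2 difference was 0.83 from siCTR (0.69 to 0.96) and 0.87 from NO (0.63 to 1.11). The repeat arrays differed by 0.04 in siPIR, 0.23 in siCTR and 0.44 in NO. The dimmer probe set (202643_s_at) read 131 and 153 in siPIR, 72.2 and 108 in siCTR and 139 and 104 in NO. It gave 0.65 from siCTR but 0.23 from NO, where the siPIR and NO arrays overlapped, so only the brighter probe set placed siPIR wholly above NO. As a mean over both probe sets TNFAIP3 was 0.55 from NO and not called.

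NFKBIA encodes IkB alpha, the inhibitor that is degraded and resynthesised within a pulse of NF-kB activity. Its brighter probe set (201502_s_at) read 1302 and 803 in siPIR, 858 and 890 in siCTR and 812 and 843 in NO. The 2 siPIR arrays fell on either side of the controls, and they differed by 0.69, above the 95th percentile of repeat differences at that brightness (0.42). The log2 differences of 0.23 from siCTR and 0.30 from NO therefore rest on the first siPIR array, and without it they were -0.12 and -0.04. The dimmer probe set (231699_at), below the median signal in every pool, was -1.25 from siCTR and -0.89 from NO. As a mean over both probe sets NFKBIA was -0.51 from siCTR and -0.29 from NO. NFKBIA and TNFAIP3 are both known feedback inhibitors, and siPIR lay above all control arrays for TNFAIP3 and not for NFKBIA.

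NFKBIB encodes IkB beta, and its probe sets disagreed. The brighter one (214448_x_at) read 422 and 454 in siPIR, 304 and 310 in siCTR and 336 and 425 in NO, with log2 differences of 0.50 and 0.21. Another (214062_x_at) read 173 and 162 in siPIR, 169 and 232 in siCTR and 235 and 243 in NO, with -0.23 and -0.50. The suffix of both names marks probes that can bind several genes, so the NFKBIB values are uncertain. NFKBIE encodes IkB epsilon. It read 760 and 690.3 in siPIR, 722 and 839 in siCTR and 672 and 708 in NO (203927_at), with overlap between siPIR and each control and differences of -0.10 and 0.07.

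Over all 22 probe sets of the 10 members, 15 were positive and 7 negative against siCTR, and 13 and 9 against NO. Among the 18 above the median signal, 5 were higher and 0 lower by 1.5-fold against siCTR, where 11.5% and 10.2% of all 26305 annotated probe sets above the median signal were. Those 5 came from BCL3 with MIR8085 (both probe sets), NFKB2 (1) and TNFAIP3 (2). Against NO 3 of the 18 were higher and 0 lower (11.2% and 14.2% of all such probe sets), from NFKB2 (2) and TNFAIP3 (1). Probe sets of a gene share their target, so these are not independent counts.

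**Figure D3:**
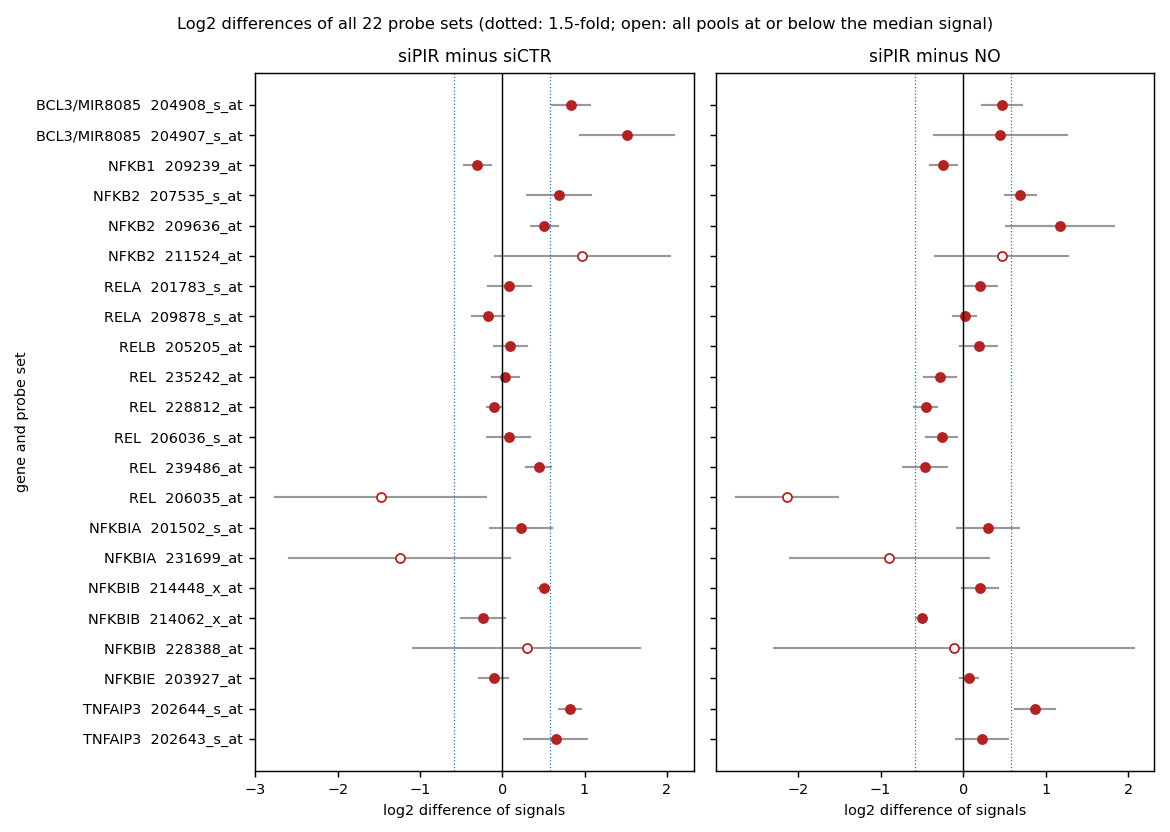
Log2 difference of pool means (points) and the lowest and highest difference over the 4 pairs of arrays (lines) for all 22 probe sets, siPIR minus siCTR on the left and siPIR minus NO on the right; dotted lines mark 1.5-fold and open points have every pool at or below the median signal. TNFAIP3 202644_s_at lies at 0.83 and 0.87 and NFKB2 207535_s_at at 0.69 and 0.69, and all 4 filled REL points lie left of 0 in the comparison with NO.

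The control pools differed from each other as well, which bears on which control each value is read against. Between siCTR and NO 0 of 9 members were called at 1.5-fold or at 2-fold, where 2.86% of all genes were higher in siCTR, 5.38% lower and 3.51% called at 2-fold. The median of the members was 0.06, beside 0.01 over all genes. The arrays of siCTR and NO did not overlap for 5 of the 9 members (53% of all genes). The split of all genes between higher and lower calls moved with the scaling: siCTR against NO had 374 higher and 703 lower, and 614 and 516 after each array was centred on its median. Under quantile normalization it had 515 and 562. For siPIR against NO, 1558 higher and 1683 lower became 2050 and 1378 after centring.

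Beyond the members, 85 other genes of the pathway were listed by role, of which 65 were measured, 12 stayed below the median signal and 8 had no probe set of their own and were not analysed here. Of the 65, 10 were higher and 2 lower than both controls by 1.5-fold, the higher ones being 15.4% of the list, where all genes gave 6.37% higher and 7.55% lower. Of the 10 higher genes 6 were targets, a role whose list includes genes already known from earlier results of these data to differ. The share of the whole list is therefore not independent evidence. Against siCTR 15 were higher and 2 lower (10.7% and 10.1% of all genes), and against NO 14 were higher and 6 lower (11.9% and 12.9%). The higher counts include CCL2 against siCTR and RNF31 against NO, which passed the filter on low signal only through the siPIR pool. CCL2 read 86.8 and 80 in siPIR, 30.3 and 25.6 in siCTR and 71.9 and 52.8 in NO. The medians of the 65 genes were 0.20 and 0.11, beside 0.05 and 0.03 for all genes, and 36 of them were positive against both controls and 15 negative.

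Among 3 measured ligands, TNFSF13B, the B-cell activating factor BAFF that signals through the alternative pathway, was higher in siPIR. It was the only ligand called higher than both controls, where 6.37% of all genes were. It read 4349 and 4173 in siPIR, 2602 and 2868 in siCTR and 1837 and 1921 in NO, a difference of 0.64 and 1.18. The siCTR arrays were also above NO, by 0.54, and without the first of them TNFSF13B was 0.57 from siCTR and not called. Among 9 measured receptors 2 were higher than both controls (6.37% of all genes) and 0 lower (7.55%). The medians of the role had opposite signs, 0.55 from siCTR and -0.25 from NO. LTBR, the lymphotoxin beta receptor of the alternative pathway, read 1642 and 1435 in siPIR, 1003 and 804 in siCTR and 871 and 863 in NO (0.77 and 0.82). TNFRSF12A, the receptor of TWEAK, read 1561 and 1438 in siPIR, 757 and 685 in siCTR and 817 and 1020 in NO (1.05 and 0.71), and was 0.55 from NO, not called, without the first NO array. The receptor with the largest mean difference, TLR2, a receptor of bacterial lipopeptides, was 1.69 above siCTR and -0.46 from NO. Its siCTR arrays read 7.7 and 64.5, against 137 and 121 in NO. The TLR2 difference from siCTR was 0.48 and not called without the first siCTR array, and 2.90 without the second.

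None of the 10 measured adaptors and ubiquitin ligases and none of the 10 measured kinases was called against both controls. With so few genes this does not set these roles apart from all genes (6.37% higher and 7.55% lower). The medians were 0.28 and 0.34 for the adaptors and 0.18 and 0.12 for the kinases. MAP3K14, which encodes the NIK kinase that drives NFKB2 processing, read 124 and 88.4 in siPIR, 73.5 and 88.8 in siCTR and 47.4 and 8.1 in NO. The siPIR and siCTR arrays overlapped (0.35), while NO was lower than siPIR by 2.04 and rested on a low second array, without which the difference was 1.06. RNF31, a subunit of the linear ubiquitin ligase, had the largest mean difference among the adaptors, but its repeat arrays read 26.1 and 138 in siPIR and 23.8 and 93.9 in siCTR, against 18.9 and 17.9 in NO.

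Among 10 measured restraints of the pathway TNIP1, a binding partner of A20, was higher in siPIR and COMMD1, which promotes the degradation of RELA, was lower. Against both controls 1 of 10 was thus called higher (6.37% of all genes) and 1 lower (7.55%). TNIP1 read 1175 and 1579 in siPIR, 876 and 833 in siCTR and 777 and 771 in NO (0.67 and 0.81). As a mean over its 2 probe sets, of which only 1 was above the median signal, it was -0.18 from siCTR and 0.07 from NO. Without the second siPIR array TNIP1 was 0.46 from siCTR and not called. COMMD1 read 728 and 780 in siPIR, 4177 and 3981 in siCTR and 3855 and 3855 in NO, a difference of -2.43 and -2.35. Of 8 measured nuclear partners and co-regulators 0 were called against both controls, where 6.37% of all genes were higher and 7.55% lower. The one with the largest mean difference was NFKBIZ, a nuclear IkB protein related to BCL3, at 0.46 and 0.27. A second NFKBIZ probe set above the median signal gave 0.98 from siCTR, and as a mean over both NFKBIZ was 0.72 from siCTR, which is called at 1.5-fold.

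The known NF-kB targets held more of the calls than any other role, with 6 of 15 measured genes higher than both controls (6.37% of all genes) and 1 lower (7.55%), and medians of 0.43 and 0.53. The list includes genes already known from earlier results of these data to differ, so its count is not independent evidence of a direction. ICAM1, an adhesion molecule for leukocytes, read 7744 and 6844 in siPIR, 4558 and 4381 in siCTR and 3089 and 3086 in NO (0.70 and 1.24). BCL2L1, which encodes the survival protein BCL-XL, read 1259 and 914 in siPIR, 639 and 594 in siCTR and 479.5 and 462 in NO (0.79 and 1.18). In both genes the siCTR arrays were above the NO arrays, and the siPIR arrays were above siCTR. Without the first siPIR array BCL2L1 was 0.57 from siCTR and no longer called.

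Of the secreted targets, the neutrophil chemokine CXCL1 read 504 and 450.2 in siPIR, 317 and 251 in siCTR and 305 and 319 in NO (0.75 and 0.60). The cytokine LIF read 5059 and 5039 in siPIR, 3546 and 3108 in siCTR and 2962 and 3214 in NO (0.60 and 0.71). The chemokine CCL20 read 357 and 432 in siPIR, 238 and 279.5 in siCTR and 242 and 139.8 in NO (0.60 and 1.07). In these 3 genes both siPIR arrays lay above all 4 control arrays, by amounts close to 1.5-fold from at least 1 control. Their calls were accordingly lost under some settings: CCL20 kept its call against siCTR in 8 of 13 alternatives (down to 0.46 without the second siPIR array), LIF in 12 of 14 (0.51 without the second siCTR array), and CXCL1 kept its call against NO in 11 of 14 (0.52 without the first siPIR array). CXCL1 was also not called against siCTR without the second siCTR array (0.58), nor CCL20 without the first (0.48). CXCL8 gave 0.82 and 1.35 at a probe set whose suffix (_x_at) makes it uncertain. It read 2837 and 2854 in siPIR, 1812 and 1438 in siCTR and 1021 and 1210.5 in NO. The siCTR arrays of CXCL8 were thus also above NO, by 0.54. Its 2 probe sets, both above the median signal, were 0.71 and 0.82 from siCTR and 1.35 or more from NO. SOD2, the mitochondrial superoxide dismutase, was the called target that was lower, at 104 and 49.9 in siPIR, 207 and 207 in siCTR and 298 and 326 in NO (-1.45 and -2.03). That value comes from the single probe set annotated with SOD2 alone, and the others annotated with SOD2 and a second gene were not used.

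**Figure D4:**
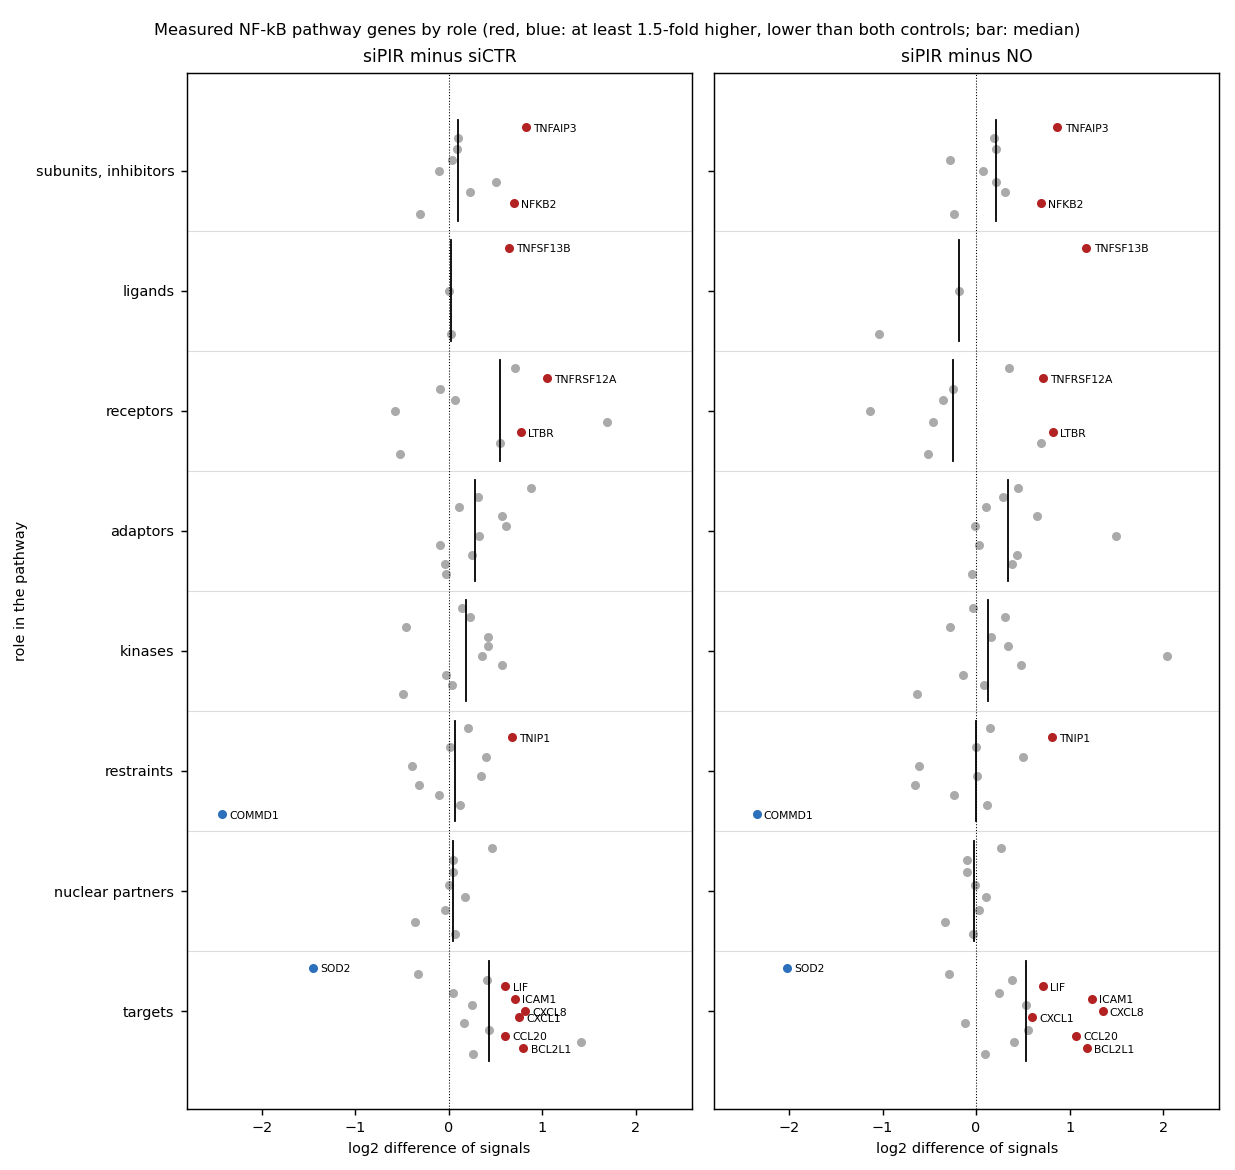
Log2 difference from siCTR (left) and from NO (right) of the 9 measured members and the 65 other measured pathway genes (points), grouped by role, with the median of each role (bars); red and blue mark genes at least 1.5-fold higher or lower than both controls. The targets hold 6 red points and 1 blue point, and the adaptors, kinases and nuclear partners hold none. Over all measured genes 6.37% were higher and 7.55% lower than both controls.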

How the data were processed

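Total RNA of 3 pools was profiled on 6 HG-U133 Plus 2 arrays. The authors deposited 1 linear intensity per probe set and array, made with GCOS per the submitters' processing notes; a GCOS version was not given in the sources used here. The mean without the lowest and highest 2% of values was, per array, 500 to within rounding, the pattern left by scaling to a target of 500, which hides differences in total RNA. Differences are on log2(value + 5.4), where 5.4 is the 10th percentile over the 6 arrays, a scale that understates differences of dim genes. A gene was represented by its brightest probe set annotated with it alone (41097 of 54675 probe sets; 1801 name several genes and 11777 are unlisted) in the platform annotation, where 99.9% of gene IDs matched the RefSeq table and 0 symbols changed. It was measured when a pool mean exceeded 70.2, the median of all values. The 2 arrays of a pool were averaged and count as 1 sample. The single test across genes used limma 3.58.1 in R 4.3.3 with Benjamini-Hochberg adjustment, and the scripts were tested on simulated data. Genes named outside the members are PIR, pathway genes called against both controls, the gene of each role with the largest mean difference, the 3 genes nearest NFKB2 in pattern, and marker genes (CD14, FCER1G, CSF1R, PTPRC, COL1A2, COL1A1 and LUM, picked after their values were seen). CCL2 is named because it passed the filter only through siPIR. No such neighbours were sought for BCL3, which has no probe set of its own. The members and lists were chosen with earlier results of these data known. Alternatives covered the pseudocount, scaling, choice of probe set, filter and each array left out. Precision is limited by the number of pools (3) and arrays (6).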

Additional observations from a re-analysis of the deposited data

How the results depend on the processing

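Over 351 values of the 9 measured members under the alternatives tried, 344 kept their call, 331 kept their sign, and 0 called values reversed. Many of these values could not change, such as siPIR against siCTR without a NO array, or any member value without the filter. Most were not called in the main setting, and members removed by a setting were not counted. These totals therefore do not measure how stable the calls are. The count of 2 members higher than siCTR became 0 without probe sets whose suffix is _x_at or _s_at. That setting removes TNFAIP3, RELA, NFKBIA and NFKBIB, which have no other probe set above the median signal. NFKB2 stayed in it at 0.51 from siCTR, short of 1.5-fold. The count was also 0 when only genes above the 75th percentile of signal (458) were kept, a filter that removes NFKB2 and TNFAIP3. It ranged from 1 to 2 with an array left out. The counts against NO were 1 and 0 under these settings, with 1 to 3 leaving out an array (1 without the second NO array, 3 without the second siPIR array). As a mean over probe sets the count against NO was 1 higher and 1 lower, since TNFAIP3 (0.55) was not called and REL (-0.72) was called lower. The REL mean includes 206035_at, which was below the median signal in every pool and -2.14 from NO. Against both controls the count was 1 as a mean over probe sets, then 0 and 0 under the same settings, and 1 to 2 with an array left out (1 without the first siCTR or the second NO array). At 2-fold the count of 0 was 0 to 1 with an array left out, reaching 1 without the second siCTR array and, against NO, without the second NO array, and it was 1 against NO without _x_at and _s_at probe sets. For siCTR against NO the count of 0 became 1 without those probe sets. The members' median difference from siCTR was -0.044 as a mean over probe sets and 0.0022 to 0.23 with an array left out, and that from NO was 0.070 and 0.068 to 0.28. Their median between siCTR and NO was 0.10 under quantile normalization, 0.18 after centring and 0.10 above the 75th percentile. The pathway median from NO was 0.19 after centring and 0.033 without a filter. Centring moved the median of all genes to 0.12 for siPIR against NO and 0.13 for siCTR against NO. The limma count of 0 became 486 after centring and 2104 above the 75th percentile, and the cause was not tested. TNIP1 reversed to -0.18 from siCTR as a mean over its 2 probe sets, of which only 1 was above the median signal. Counting BCL3 through its brighter shared probe set, an alternative chosen after seeing the data, gave 3 members higher than siCTR. No paired analysis was possible because the replicate numbers name repeat arrays of 1 RNA pool, which were averaged.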
